A study of Mus musculus with 59 samples.

Results

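The TRIM genes followed here are the members of the tripartite motif family whose transcripts were detected in primary microglia, the brain's own macrophages, grown from mice. Members were the genes with a Trim symbol followed by a digit that reached a TPM of 1 or more in 4 or more libraries of either deposited table, and pseudogene symbols were skipped. Of 63 symbols that matched, 1 was a pseudogene, and 45 of the other 62 were members, out of 32070 genes in each table. The remaining 17 stayed under the limit, the highest of them being Trim66 with 1.18 TPM in its highest library. Just inside the limit stood Trim6, which passed in 4 libraries with a highest value of 1.37 TPM, and Trim34b, which passed in 10 libraries with a highest value of 1.45 TPM. In the table without pIC, Trim55 passed in 6 libraries, 5 of KO with LPS and 1 of untreated KO, so its differences between KO and the other genotypes under LPS are given as a description. There Trim30b and Trim30c passed in 12 and 15 libraries, which were all LPS libraries, so a rise with LPS was built into their selection. Those of Trim30b lay mostly outside KO, so its KO differences under LPS are given as a description too.

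TRIM proteins share an amino-terminal RING finger, B-box zinc fingers and a coiled coil, and most are E3 ubiquitin ligases, enzymes that attach ubiquitin or its relative ISG15 to target proteins. The carboxy-terminal domain differs between members and sets their class, the largest being the class with a PRY-SPRY domain. Many members are switched on by type I interferon and act on the sensors and kinases that make interferon, among them TBK1, so they stand both upstream and downstream of that kinase. In microglia, as in other macrophages, LPS and double-stranded RNA reach TBK1 through Toll-like receptors and cytosolic sensors.

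The study removed Tbk1 from microglia with a conditional allele and a Cre recombinase driven by Cx3cr1. Cultures from newborn pups were KO (Tbk1fl/fl, Cx3CR1-Cre positive), HET (Tbk1fl/+, Cx3CR1-Cre positive) or WT (Tbk1fl/fl, Cre negative). After 16 h of plating, cells received 100 ng/mL of LPS, the lipopolysaccharide of bacterial outer membranes, 20 ng/mL of IL4, a cytokine that drives alternative activation of macrophages, pIC, a double-stranded RNA mimic also written poly(I:C) whose dose the sources used here do not give, or none of these (UT), each for 24 h. Each genotype and treatment had 5 libraries, 1 per culture, except untreated WT with 4, since its replicate 5 was not analysed here. WT cultures carried no Cre, so in comparisons with WT the loss of Tbk1 and the presence of Cre cannot be told apart, while KO against HET holds Cre constant.

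Values are TPM, a share of all transcripts. They scale reads by gene length and bring every library to nearly the same total, so the depth of a library is unknown. Values of a group are listed in the order of culture 1 to 5. Differences are of log2(TPM + 1) with their standard error from limma, and a gene was called where the p adjusted over all genes tested was under 0.05. Tbk1 itself was at 12.1, 19.4, 17.7, 25.8 and 15.2 TPM in the KO LPS libraries, against 81.9 to 101 TPM in WT, and the KO difference from WT was -1.24 untreated, -2.31 under LPS, -1.49 under IL4 and -1.77 under pIC. The summed level of 6 microglial markers was 1194 to 1764 TPM in KO LPS libraries and 949 to 1168 TPM in WT LPS libraries, and 4 of the 6 were called higher in KO. Limma called 0 of 7 neuronal, 0 of 8 oligodendrocyte lineage and 0 of 6 astrocyte markers between KO and WT under LPS, with 1, 1 and 0 of them at an unadjusted p under 0.05, and of 5 fibroblast and vessel markers 1 was higher and 1 lower. The part of these shifts in the TRIM differences below was not tested, and in bulk RNA fewer cells of a type and less RNA per cell cannot be told apart.

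In resting cells the family was led by Trim28, a chromatin regulator. Trim28 (KAP1, the corepressor that KRAB zinc finger proteins use to silence transposable elements) was the highest in untreated WT at 181 ± 12.7 TPM (SD, n = 4). Trim35 followed at 89.2 ± 9.88 TPM, Trim44 at 62.4 ± 5.25 TPM, Trim8, a regulator of cytokine signalling, at 53.8 ± 4.71 TPM, Trim27 at 49.9 ± 4.05 TPM and Trim26 at 47.2 ± 7.66 TPM. Trim8, Trim27 and Trim26 did not differ from their neighbours in this order beyond the spread. All 45 members together took 971 ± 39.0 TPM in untreated KO, 1019 ± 60.7 in HET and 1062 ± 55.0 in WT. Under LPS the sum was 989 ± 114 TPM in KO, 1406 ± 38.8 in HET and 1451 ± 51.7 in WT. Under pIC it was 1675 ± 87.9 TPM in KO, 1861 ± 94.9 in HET and 1884 ± 101 in WT, and under IL4 it was 901 ± 65.7 TPM in KO, 941 ± 57.9 in HET and 958 ± 97.2 in WT.

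**Figure D1:**
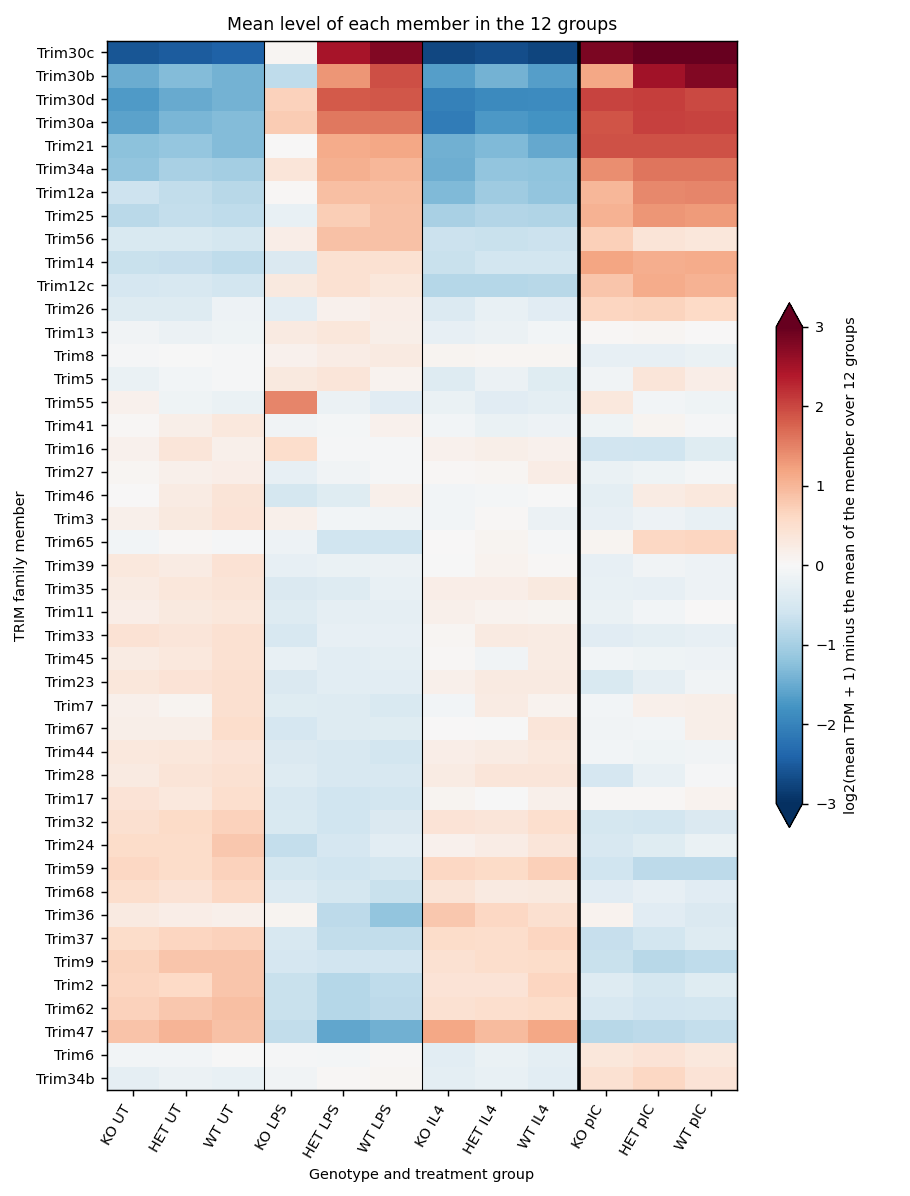
Each of the 45 TRIM members (rows) in the 12 groups of genotype and treatment (columns), with colour giving log2(mean TPM + 1) of the group minus the mean of that member over the 12 groups, and a thick line before the pIC groups, which come from a separate table. The 4 Trim30 genes at the top are low in untreated and IL4 groups and high under pIC in all genotypes and under LPS in HET and WT, while KO with LPS lies between.

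LPS split the family in WT cells. Of the 43 members tested, 14 rose and 24 fell with LPS in WT, beside 13.9% of all genes tested called higher and 61.9% called lower. The median difference was -0.56 over the members and -0.59 over all genes. The rises were led by a group of neighbours on chromosome 7: Trim30c by 5.15 ± 0.29, Trim30b by 3.35 ± 0.22, Trim30d by 3.30 ± 0.15 and Trim30a by 2.90 ± 0.12 on the log2 scale. Trim30a is a mouse inhibitor of Toll-like receptor signalling to NF-kB, and Trim30b, Trim30c and Trim30d are its relatives. Trim21, the cytosolic antibody receptor, rose by 2.49 ± 0.16, Trim34a by 2.02 ± 0.13 and Trim12a, a relative of the primate retrovirus restriction factor TRIM5, by 1.75 ± 0.12. Trim25, the ligase of the RNA sensor RIG-I, rose by 1.62 ± 0.11, Trim56, which acts on nucleic acid sensing through STING, by 1.40 ± 0.13, and Trim14, which binds MAVS and lacks a RING finger, by 1.22 ± 0.13. Trim12c (0.89), Trim26 (0.35), Trim13 (0.32) and Trim8 (0.30) completed the 14. The rises of Trim30b and Trim30c are descriptions, since LPS libraries alone brought them past the limit. The largest of the 14 adjusted p by limma was 0.0421, for Trim13.

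The 14 members were chosen for their rise in WT, so their sums in each genotype are given as a description. They summed to 1029 ± 59.6 TPM in WT with LPS, against 302 ± 22.0 TPM in WT without it. In HET, 15 members rose and 24 fell with LPS, beside 14.3% and 59.7% of all genes. In KO, 13 rose and 20 fell, beside 13.1% and 56.5% of all genes. These splits depend on the scaling. With median-of-ratios scaling 17 rose and 13 fell in HET, beside 5134 and 5186 of the 15908 genes tested. In KO 20 rose and 14 fell, beside 4669 and 4629 genes. With quantile normalization 16 rose and 14 fell in HET, beside 4032 and 5767 genes. In KO 19 rose and 15 fell, beside 3744 and 5220 genes. The same 14 members summed to 998 ± 67.9 TPM in HET with LPS, against 301 ± 12.0 TPM without it, and to 566 ± 104 TPM in KO with LPS, against 291 ± 18.8 TPM without it.

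Of the 24 members that fell in WT, Trim47 fell by 2.33 ± 0.15 on the log2 scale, Trim62 by 1.70 ± 0.29 and Trim2, a ligase for neurofilament protein in neurons, by 1.65 ± 0.25. Trim9, a brain ligase of netrin signalling, fell by 1.46 ± 0.34, the centrosome protein Trim37 by 1.43 ± 0.17 and Trim36, which binds microtubules, by 1.32 ± 0.17. Trim28 fell by 0.97 ± 0.14, and its chromatin relatives Trim24 and Trim33 fell by 1.12 ± 0.18 and 0.70 ± 0.11. In the same WT cultures the summed level of the 8 oligodendrocyte lineage markers was 159 to 787 TPM with LPS and 961 to 2305 TPM without it, and that of the 7 neuronal markers was 42.6 to 105 TPM with LPS and 164 to 292 TPM without it. The 6 microglial markers summed to 949 to 1168 TPM with LPS and 4630 to 5283 TPM without it, with 5 of them called lower and 1 higher. The 6 astrocyte markers summed to 39.1 to 58.4 TPM with LPS and 59.4 to 106 TPM without it. The 5 fibroblast and vessel markers summed to 4.13 to 5.46 TPM with LPS and 1.72 to 9.01 TPM without it. The part of these shifts in the falls was not tested. The scaling matters for this direction: with median-of-ratios scaling the median gene shifted by -0.06 in place of -0.59, and with quantile normalization by -0.15. With median-of-ratios scaling 17 members rose and 13 fell, beside 5024 and 5139 of the 15908 genes tested. With quantile normalization 16 rose and 15 fell, beside 3989 and 5886 genes. All 14 rises were called under both scalings. Of the 24 falls, 13 were called under both, Trim33 and Trim35 with quantile normalization alone, and 8 under neither, while Trim27 was called higher with median-of-ratios scaling.

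The central comparison was of KO with WT under LPS. Of the 43 members tested, KO had 12 lower and 5 higher than WT, beside 13.2% of all genes called lower and 14.4% called higher. The median difference was -0.08 over the members and 0.01 over all genes. The lower members were Trim12a, Trim14, Trim21, Trim25, Trim26, Trim30a, Trim30b, Trim30c, Trim30d, Trim34a, Trim46 and Trim56, and the higher ones Trim16, Trim36, Trim47, Trim55 and Trim65. In 11 of the lower members (all but Trim46) every KO library lay below every WT library, beside 8.61% of all genes, and in 4 of the higher members (all but Trim16) every KO library lay above every WT library, beside 7.56% of all genes. Of the 14 members raised by LPS in WT, 11 had lower values in KO with LPS, a count that shares the WT LPS libraries with the rise itself. Trim8, Trim12c and Trim13 were not called. The 5 higher members include Trim55, which passed the limit through KO libraries. The 12 lower members include Trim30b, which passed it mostly through HET and WT libraries.

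**Figure D2:**
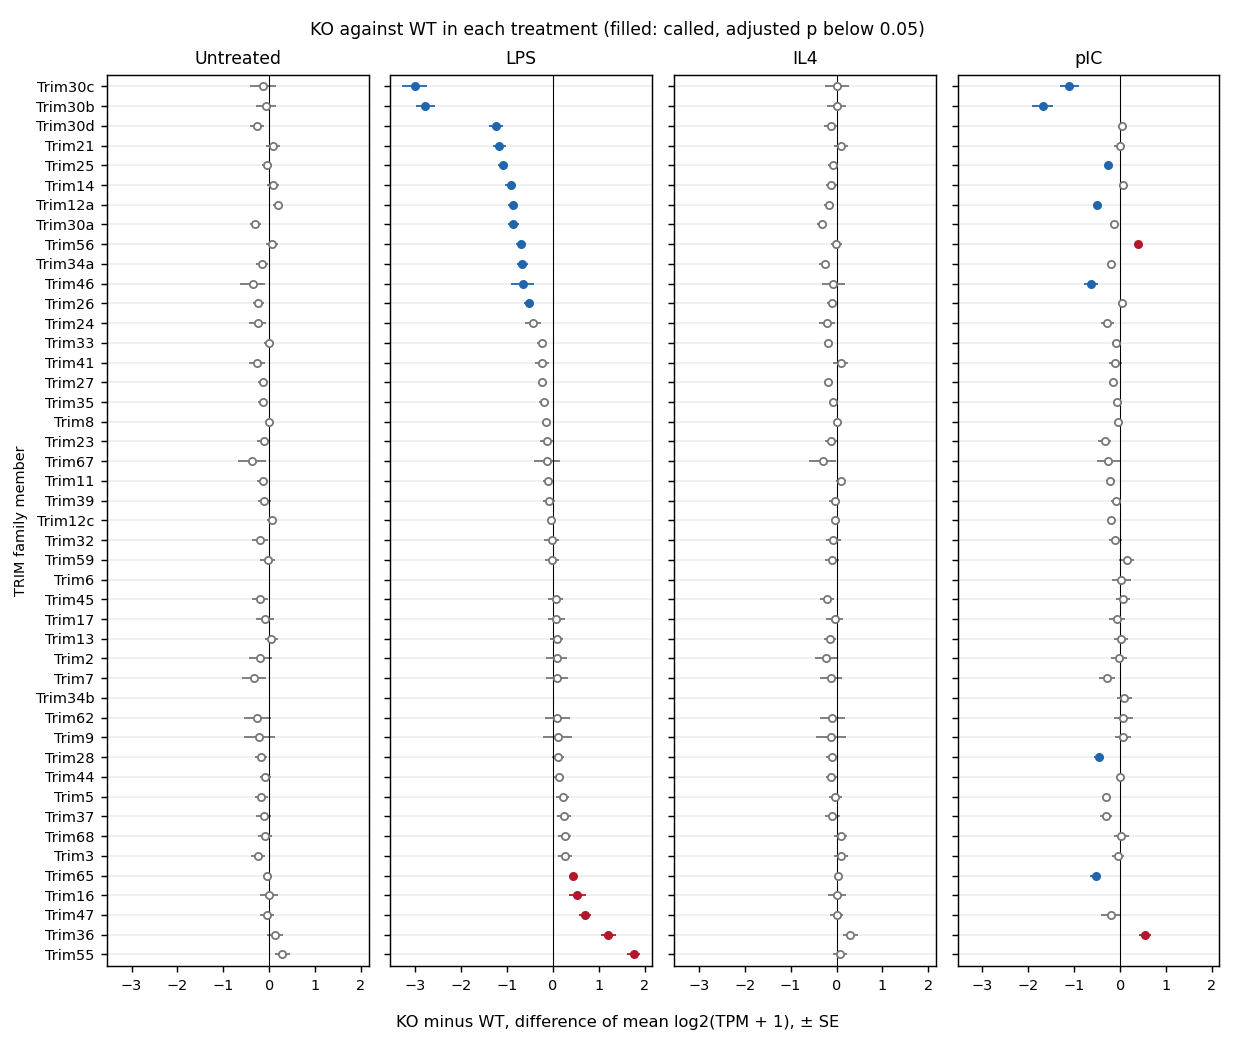
KO minus WT difference of mean log2(TPM + 1) (x axis) for each TRIM member (rows) in each treatment (panels), with bars of 1 standard error from limma and filled points for calls at an adjusted p under 0.05. Under LPS 12 members are called lower and 5 higher, and under pIC 7 are lower and 2 higher, with Trim30b and Trim30c lowest in both.

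Trim30c and Trim30b stood lowest. Trim30c was at 14.4, 1.86, 9.57, 2.69 and 2.42 TPM in KO LPS libraries, at 34.6, 38.4, 21.9, 32.1 and 61.1 TPM in HET and at 35.4, 43.4, 38.8, 41.4 and 72.4 TPM in WT. KO libraries 1 and 3 were the highest of their group and still lay below every HET and WT library. The KO difference from WT was -3.01 ± 0.27 (adjusted p = 1.52e-11), and the KO mean was 13.4% of the WT mean. Trim30b was at 2.17, 0.353, 1.15, 0.568 and 0.188 TPM in KO, at 6.62, 5.73, 3.66, 7.16 and 12.2 TPM in HET and at 14.7, 9.41, 11.2, 7.87 and 13.8 TPM in WT. The KO values again lay below all others, and HET overlapped WT in 1 library. The KO difference from WT was -2.78 ± 0.21, at 7.77% of the WT mean. It is a description, since HET and WT libraries mostly brought the gene past the limit. Of the KO libraries, only 1 and 3 reached 1 TPM. KO library 1 weighs on both means: without it the KO mean of Trim30b was 0.566 TPM in place of 0.886, and that of Trim30c 4.13 TPM in place of 6.19.

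Their neighbours Trim30d and Trim30a were lower by less. Trim30d was at 89.5, 43.9, 94.0, 52.0 and 52.1 TPM in KO LPS libraries, at 154, 138, 149, 143 and 159.6 TPM in HET and at 148, 142, 158, 141 and 166 TPM in WT. As for Trim30c, KO libraries 1 and 3 were the highest of the 5, and no KO value reached a WT or HET value. The difference was -1.24 ± 0.15 (adjusted p = 7.39e-09). Trim30a was at 167, 94.8, 176, 114 and 104 TPM in KO and between 219 and 249.6 TPM in WT, without overlap, and differed by -0.86 ± 0.11 (adjusted p = 1.01e-07). Trim12a was at 42.1, 34.6, 35.9, 30.5 and 29.2 TPM in KO and at 65.5, 62.8, 59.9, 58.9 and 71.2 TPM in WT, a difference of -0.88 ± 0.11 (adjusted p = 4.58e-08). Trim34a differed by -0.67 ± 0.12 (adjusted p = 2.23e-05).

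These genes lie side by side. In the GENCODE annotation of GRCm38 (mm10), 10 members fill chr7:104218793-104507849, in the order Trim6, Trim34a, Trim5, Trim12a, Trim34b, Trim12c, Trim30b, Trim30c, Trim30a and Trim30d. Of the 8 tested under LPS, 7 rose with LPS in WT and 6 were lower in KO with LPS than in WT, beside 13.9% and 13.2% of all genes, with Trim12c (-0.04) and Trim5 (0.21) not called. Both counts hold Trim30b and Trim30c, which LPS libraries alone brought past the limit. Their rises, and the KO difference of Trim30b, are descriptions. The 10 together summed to 302 ± 79.8 TPM in KO with LPS, 571 ± 42.1 in HET and 583 ± 47.2 in WT. Under pIC they summed to 683 ± 54.3 TPM in KO, 816 ± 60.9 in HET and 817 ± 67.3 in WT. Neighbours here are copies of each other, and reads can be shared where exons are identical. Of all stretches of 75 bases in their exons, 29.5% of those of Trim34a also occur in Trim34b, 20.6% of those of Trim5 and 16.9% of those of Trim12c occur in another gene, but only 5.4% of those of Trim30d, 4.98% of those of Trim30a, 0.078% of those of Trim30b and 0 of those of Trim30c. Values of Trim34a, Trim34b, Trim5 and Trim12c are uncertain for that reason, as is Trim34a for an antisense gene that overlaps 23.5% of its exon bases.

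**Figure D3:**
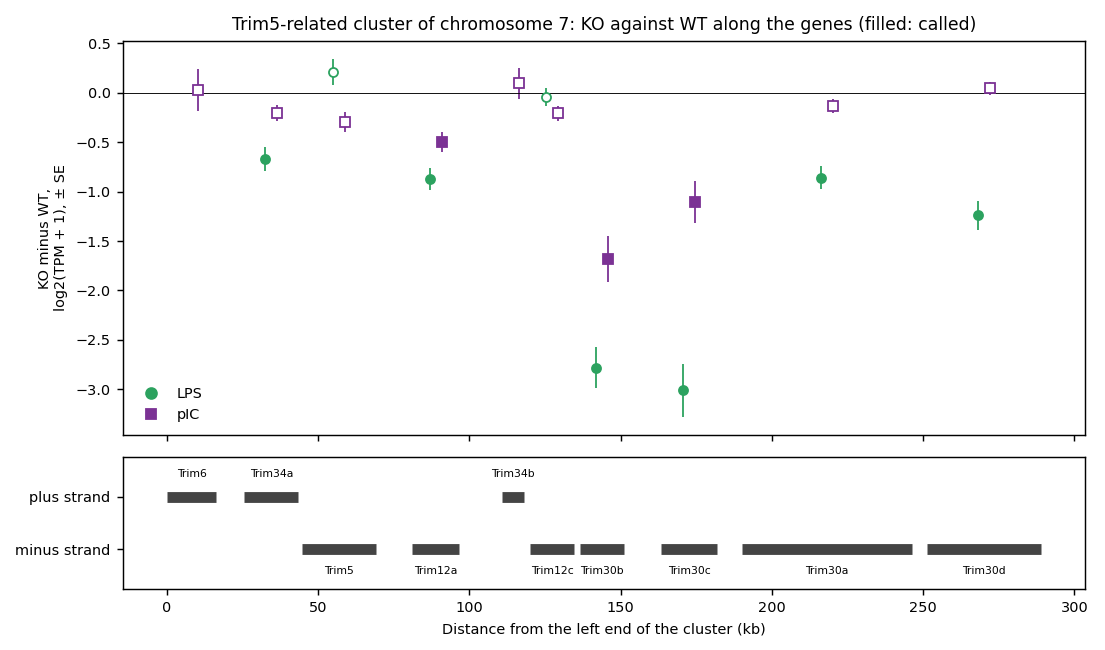
Map of the 10 neighbouring TRIM members along chromosome 7 (x axis, kb from the left end of the group), with plus and minus strand on separate rows and, above, the KO minus WT difference of log2(TPM + 1) under LPS and pIC with 1 standard error and filled symbols for calls. The 4 Trim30 genes sit together at the right end, with Trim30b and Trim30c lowest in both treatments, while Trim12c and Trim5 have open symbols under LPS.

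The sequences around the starts of these genes are shown because the letters shared by interferon-responsive promoters sit in many of them. RefSeq (GRCm38.p6) gave windows of 250 bases before to 50 after the start for 34 of the 45 members, with none for Trim3, Trim8, Trim11, Trim14, Trim16, Trim17, Trim33, Trim35, Trim36, Trim55 and Trim65. The letters searched were GAAA and GAAA spaced by any 2 bases, the core of the interferon-stimulated response element (ISRE), on both strands. Matches are in capitals below, and read TTTC and TTTC where the other strand carries them. Overlapping matches run together. Trim30c is shown in lower case throughout because its window does not hold these letters, although it lines up with those of Trim30a and Trim30d. Against the RefSeq start, the first capital lay past it, at 10 in Trim12a and Trim34a and at 13 in Trim21. It lay before the start, at -29 in Trim12c, -36 in Trim30a, -41 in Trim30d and -160 in Trim26. The Trim30c letters that line up with the site began at -137.
Trim30a (chr7:104465190-104465309, minus strand): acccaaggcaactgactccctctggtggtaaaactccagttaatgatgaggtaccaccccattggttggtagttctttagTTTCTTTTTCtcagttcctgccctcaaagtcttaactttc
Trim30d (chr7:104507851-104507970, minus strand): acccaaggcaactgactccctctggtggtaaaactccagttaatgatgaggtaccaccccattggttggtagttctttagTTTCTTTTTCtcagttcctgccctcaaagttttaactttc
Trim30c (chr7:104400876-104400995, minus strand): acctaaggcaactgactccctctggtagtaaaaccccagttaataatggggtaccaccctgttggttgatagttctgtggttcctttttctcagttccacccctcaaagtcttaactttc
Trim12a (chr7:104315466-104315565, minus strand): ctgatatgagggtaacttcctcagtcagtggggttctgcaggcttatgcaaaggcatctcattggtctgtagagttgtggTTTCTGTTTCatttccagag
Trim12c (chr7:104353339-104353458, minus strand): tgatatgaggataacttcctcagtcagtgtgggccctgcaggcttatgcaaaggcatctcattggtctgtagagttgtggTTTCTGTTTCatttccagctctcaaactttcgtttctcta
Trim34a (chr7:104244387-104244486, plus strand): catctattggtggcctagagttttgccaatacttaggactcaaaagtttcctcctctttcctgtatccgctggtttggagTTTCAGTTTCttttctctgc
Trim21 (chr7:102565453-102565549, minus strand): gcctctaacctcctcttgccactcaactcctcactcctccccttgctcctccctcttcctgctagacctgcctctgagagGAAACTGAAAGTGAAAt
Trim26 (chr17:36836906-36837031, plus strand): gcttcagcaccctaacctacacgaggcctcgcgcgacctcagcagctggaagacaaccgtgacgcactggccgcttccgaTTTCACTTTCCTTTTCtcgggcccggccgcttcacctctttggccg

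The Trim30a and Trim30d stretches were identical at 119 of 120 bases (99.2%). The Trim30c stretch matched that of Trim30a at 107 of 120 bases (89.2%), and within the 10 letters of the site it carried the substitution T3C, counted from the 5′ end of the letters as shown, so the letters searched were absent there. The stretches of Trim12a and Trim12c, with the same 10 letters at the site, compared over 100 bases each, were identical at 94 positions, with 5 substitutions and 2 gap positions (93.1%). Trim12a differed by -0.88 in KO under LPS and Trim12c by -0.04. Over the members, the ISRE letters occurred in the windows of 6 of the 11 with a window that were lower in KO under LPS (Trim12a, Trim21, Trim26, Trim30a, Trim30d and Trim34a), in 0 of 1 that was higher, and in 3 of the other 22 (Trim2, Trim5 and Trim12c), beside 3.99% of 27025 genes with such a window. Trim25, Trim30b, Trim46 and Trim56 had none of the letters in their windows. The Trim30b window (chr7:104358597-104358896, minus strand) lies inside the gene as GENCODE places it, which starts at 104369884. The sequence at that GENCODE start was not searched. The letters TTC and GAA spaced by any 3 bases, a STAT binding core (GAS), occurred in Trim30c, Trim45 and Trim46, beside 9.55% of genes, and GGG and TTTCC spaced by any 2 bases, an NF-kB core, in 0 of the 34, beside 1.89% of genes. The ISRE and GAS searches can overlap in sequence, and a match describes letters only.

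Of the 14 members tested that act on innate signalling, 6 were lower in KO and 1 higher, beside 13.2% and 14.4% of all genes. Trim25, on chromosome 11 of GRCm38 (chr11:88999376-89020293), was at 56.7, 45.2, 65.3, 58.3 and 55.2 TPM in KO LPS libraries, at 94.7, 116, 102, 101 and 138 TPM in HET and at 97.3, 133, 121, 110.0 and 143 TPM in WT. All 5 KO values lay below every other value. The KO difference from WT was -1.09 ± 0.11 (adjusted p = 8.82e-11). Trim21 was at 30.2, 21.2, 28.2, 21.4 and 20.5 TPM in KO, at 48.4, 50.6, 51.4, 51.4 and 67.1 TPM in HET and at 57.9, 49.7, 55.3, 49.5 and 63.7 TPM in WT. HET and WT overlapped while KO stood apart, and KO differed from WT by -1.16 ± 0.15 (adjusted p = 4.03e-08). It lies at chr7:102557921-102565486, on the same chromosome as the Trim30 genes but outside their group.

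Trim14 was at 59.1, 41.4, 69.9, 53.0 and 40.0 TPM in KO LPS libraries, at 93.1, 94.9, 90.4, 99.1 and 111 TPM in HET and at 101, 99.8, 94.7, 96.0 and 102 TPM in WT. The KO values again did not overlap the others, and the difference from WT was -0.92 ± 0.12 (adjusted p = 5.09e-08). Nans overlaps 31.3% of the exon bases of Trim14 on the opposite strand, and the sources used here do not say how reads were assigned by strand. Trim56 was at 15.3, 25.0, 25.3, 32.3 and 26.0 TPM in KO, at 40.8, 41.3, 41.8, 37.0 and 38.8 TPM in HET and at 38.7, 45.0, 39.0, 33.2 and 43.6 TPM in WT. KO library 4 at 32.3 TPM came close to the lowest WT value, and the difference was -0.70 ± 0.12 (adjusted p = 1.04e-05). Trim26, a ligase acting on interferon signalling, differed by -0.52 ± 0.11 (adjusted p = 2.15e-04). Trim46, which organizes microtubules of the axon, differed by -0.66 ± 0.25 (adjusted p = 0.048), a call that was lost under several alternatives.

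**Figure D4:**
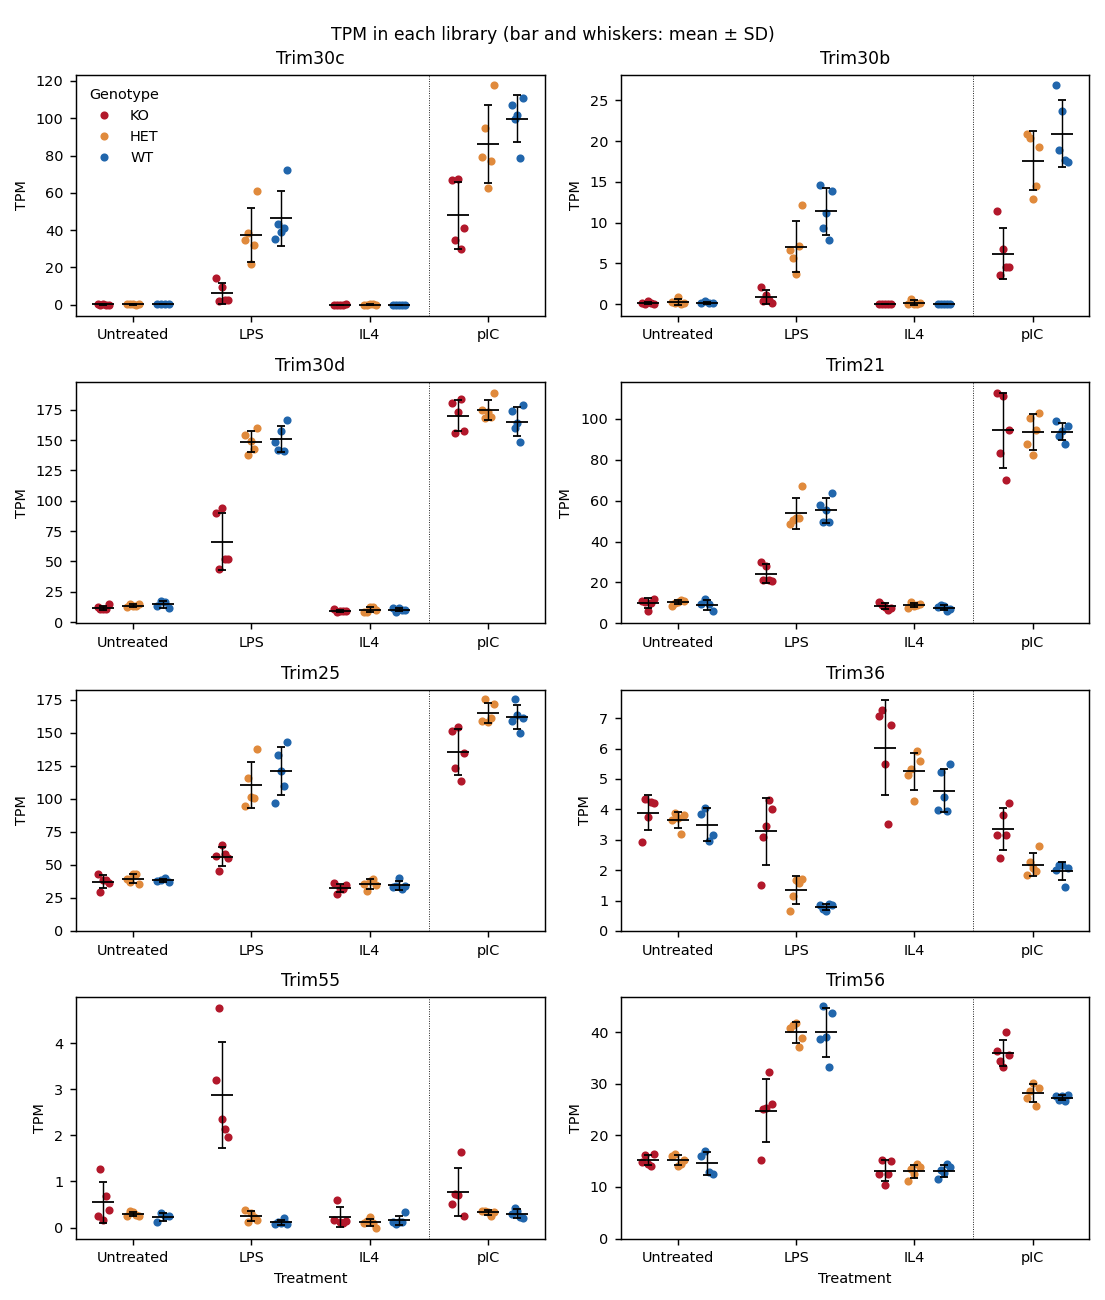
TPM of single libraries (points, y axis) for selected TRIM members in KO, HET and WT in each treatment (x axis), with bars and whiskers for mean ± SD and a dotted line before pIC, which comes from a separate table. The KO LPS libraries of Trim30c (1.86 to 14.4 TPM), Trim21 and Trim25 lie below all HET and WT LPS libraries, and those of Trim36 and Trim55 lie above all WT LPS libraries.

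The members that were higher in KO were mostly low in abundance. Trim55 (MuRF2), known from the sarcomere of muscle and located at chr3:19644474-19692421, was at 3.21, 4.75, 2.34, 2.13 and 1.97 TPM in KO LPS libraries, at 0.382, 0.125, 0.321, 0.220 and 0.174 TPM in HET and at 0.078, 0.115, 0.093, 0.199 and 0.078 TPM in WT. Every KO library stood well above all HET and WT libraries, where the gene was near the lower end of detection. The difference was 1.76 ± 0.15, a description since KO libraries alone brought the gene past the limit. Trim36 was at 1.52, 3.08, 3.46, 4.32 and 4.00 TPM in KO, at 0.642, 1.16, 1.66, 1.58 and 1.70 TPM in HET and at 0.840, 0.716, 0.648, 0.878 and 0.869 TPM in WT. KO library 1, the lowest of its group, overlapped HET but not WT. The difference from WT was 1.21 ± 0.16 (adjusted p = 9.78e-08), and Trim36, which fell in WT with LPS, was not called for LPS against UT in KO.

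Trim65, a ligase of the RNA sensor MDA5, was at 12.4, 12.9, 16.3, 13.0 and 12.4 TPM in KO LPS libraries and at 9.31, 8.60, 10.5, 10.1 and 9.53 TPM in WT. The groups did not overlap, and the difference was 0.43 ± 0.08 (adjusted p = 1.89e-05). Trim47, its neighbour on chromosome 11, differed by 0.70 ± 0.14 (adjusted p = 8.32e-05), and the exons of the pair share 225 bases on the same strand, so their values are not fully separate. Trim16, which takes part in the autophagy of damaged lysosomes, differed by 0.53 ± 0.19 (adjusted p = 0.0289).

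The response to LPS itself differed between KO and WT. Tested as the difference of the LPS minus UT changes, 10 members responded less and 4 more in KO, beside 7.03% and 9.36% of all genes. Trim30c responded by -2.87 ± 0.40 less (adjusted p = 1.08e-06) and Trim30b by -2.71 ± 0.31 (a description), followed by Trim21 (-1.25), Trim12a (-1.07), Trim25 (-1.04), Trim14 (-1.003), Trim30d (-0.98), Trim56 (-0.76), Trim30a (-0.56) and Trim34a (-0.51). The 4 with a response above that of WT were Trim55 (1.47, again a description), Trim36 (1.09), Trim47 (0.75) and Trim65 (0.48). The calls of Trim47 and Trim65 were lost with median-of-ratios scaling (adjusted p = 0.0551 and 0.104) and with quantile normalization (adjusted p = 0.0899 and 0.163). That of Trim34a was lost under 14 of 26 alternatives and that of Trim30a under 3, with adjusted p of up to 0.105 and 0.0922. Set against HET, 11 responded less and 4 more, beside 6.15% and 7.69% of all genes. Within KO, LPS still raised Trim30d by 2.32, Trim30a by 2.34, Trim30c by 2.28, Trim34a by 1.50, Trim21 by 1.24, Trim12a by 0.68, Trim56 by 0.64 and Trim25 by 0.58. Trim14 was not called in KO on the TPM scale (0.22, adjusted p = 0.0954), but it was with median-of-ratios scaling (0.74, adjusted p = 1.53e-04) and with quantile normalization (0.48, adjusted p = 0.00406). Those scalings also put the KO rise of Trim12a at 1.20 and 1.05, of Trim56 at 1.14 and 1.06 and of Trim25 at 1.10 and 0.84. Trim30b rose by 0.64 in KO, which without KO LPS library 1 was 0.43 (adjusted p = 0.0605). Trim55 differed with LPS by 1.32 ± 0.15 in KO, by -0.06 in HET and by -0.15 in WT.

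**Figure D5:**
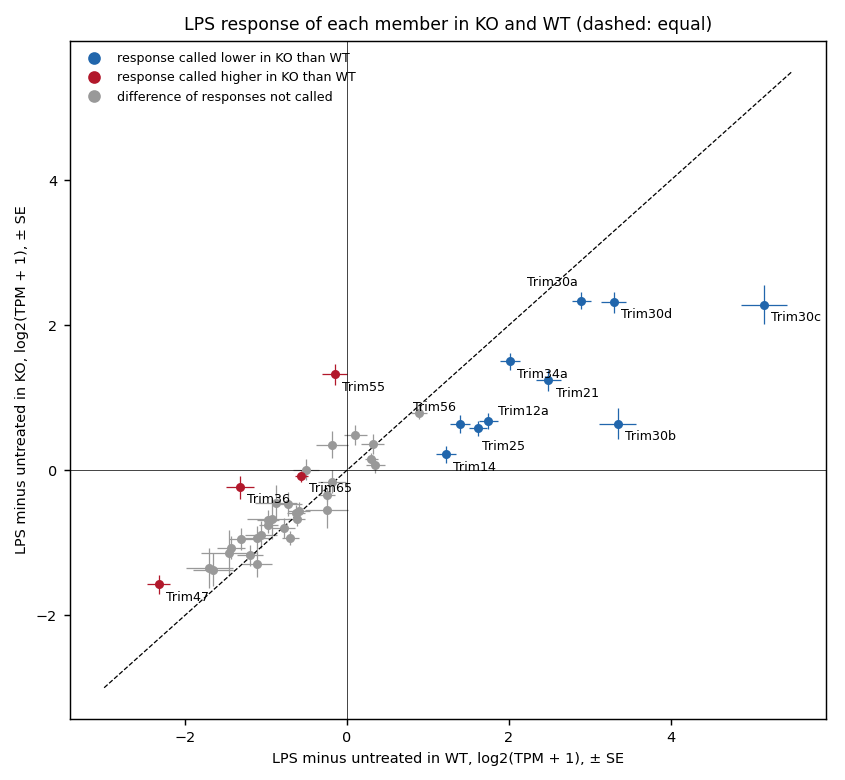
LPS minus UT difference of log2(TPM + 1) in KO (y axis) against that in WT (x axis) for each TRIM member tested, with bars of 1 standard error and a dashed line for equal responses. Trim30c lies at 5.15 in WT and 2.28 in KO and Trim30b at 3.35 and 0.64, both below the diagonal, while Trim55, Trim36 and Trim47 lie above it.

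KO against HET under LPS gave nearly the same members. It called 11 lower and 5 higher, beside 11.5% and 12.5% of all genes, and these were 11 of the 12 that were lower against WT (all but Trim46) and all 5 that were higher. Both comparisons use the same KO libraries. The differences from HET were -2.69 for Trim30c, -2.11 for Trim30b, -1.22 for Trim30d, -1.12 for Trim21 and -0.96 for Trim25, and 1.60 for Trim55 and 0.84 for Trim36. Those of Trim30b and Trim55 are descriptions here too. Between HET and WT, limma called 0 of 43 members under any treatment. Beside that count stand 0.0126% of all genes untreated, 0.0126% under LPS, 0.0126% under IL4 and 0% under pIC. At an unadjusted p under 0.05, 1 member passed untreated, 2 under LPS, 1 under IL4 and 0 under pIC. The 2 under LPS were Trim30b (-0.67, adjusted p = 0.515) and Trim36 (0.37, adjusted p = 0.858). HET means of Trim30b and Trim30c under LPS were 62.0% and 81.3% of the WT means. Tbk1 itself was not called between HET and WT either. Its differences were -0.43 untreated, -0.58 under LPS, -0.49 under IL4 and -0.61 under pIC. The count of 0 members thus does not show that HET equals WT.

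Under pIC fewer members were called, in a smaller fit of 15 libraries against 44. On simulated data that fit recovered 83% of changes of 1 on the log2 scale, against 94% under LPS. The changes were put in genes averaging above 5 TPM, so these rates do not cover low members or smaller changes. Trim16 and Trim55 were not tested under pIC, and Trim6 and Trim34b were tested there alone. Over all genes the shares called were also smaller than the 13.2% lower and 14.4% higher under LPS. Of 43 members tested, 7 were lower in KO than in WT (Trim12a, Trim25, Trim28, Trim30b, Trim30c, Trim46 and Trim65) and 2 higher (Trim36 and Trim56), beside 8.11% and 3.4% of all genes. The median difference was -0.10 over the members and -0.11 over all genes. With median-of-ratios scaling 4 were lower and 2 higher, beside 470 lower and 724 higher of the 13919 genes tested. In 7 members every KO library lay below every WT library (Trim5, not called, in place of Trim25), beside 7.05% of all genes, and in 2 above, beside 2.64%. Under LPS and pIC alike, Trim12a, Trim25, Trim30b, Trim30c and Trim46 were called lower, which is 5 of the 12 lower under LPS and of the 7 lower under pIC, and Trim36 was called higher. The summed level of the 6 microglial markers was 2969 to 5508 TPM in KO pIC libraries and 2541 to 3043 TPM in WT pIC libraries, and 2 of the 6 were higher in KO. Of 5 astrocyte markers tested 1 was higher, Aldh1l1 by 0.53, and limma called 0 of 4 neuronal and 0 of 7 oligodendrocyte lineage markers, with 0 and 0 at an unadjusted p under 0.05. Their part in the TRIM differences under pIC was not tested. The tables of pIC and of the other treatments were fitted apart, and no difference between them was tested.

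Trim30b and Trim30c were again the lowest, by less than under LPS. Trim30b was at 11.4, 3.62, 6.75, 4.62 and 4.55 TPM in KO pIC libraries, at 20.9, 20.4, 12.9, 14.5 and 19.3 TPM in HET and at 26.8, 18.9, 23.7, 17.7 and 17.5 TPM in WT. No KO value reached a HET or WT value, and the KO difference from WT was -1.68 ± 0.23 (adjusted p = 3.53e-04), at 29.6% of the WT mean. Trim30c was at 66.9, 34.6, 67.3, 29.8 and 41.3 TPM in KO, at 79.1, 95.0, 62.7, 77.1 and 118 TPM in HET and at 107, 99.4, 102, 78.7 and 111 TPM in WT. KO libraries 1 and 3 overlapped the lowest HET library but no WT library. The difference from WT was -1.11 ± 0.21 (adjusted p = 0.004), at 48.1% of the WT mean. Trim12a differed by -0.50 ± 0.10 (adjusted p = 0.00618), a call lost with median-of-ratios scaling (adjusted p = 0.0673), and Trim25 by -0.26 ± 0.08 (adjusted p = 0.0465), a call lost under 11 alternatives.

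Several members that were far lower in KO under LPS were not called under pIC. Trim21 was at 113, 83.2, 111, 70.1 and 94.7 TPM in KO pIC libraries and at 98.8, 91.4, 94.2, 87.7 and 96.7 TPM in WT, with the KO values on both sides of WT and a difference of -0.01 (adjusted p = 0.966). The KO mean was 101% of the WT mean under pIC and 44.0% under LPS. Trim14 differed by 0.06 (adjusted p = 0.643), Trim30d by 0.04 (adjusted p = 0.719), Trim26 by 0.04 (adjusted p = 0.813), Trim30a by -0.14 (adjusted p = 0.231) and Trim34a by -0.20 (adjusted p = 0.12).

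Trim56 and Trim65 had opposite signs under LPS and pIC. Trim56 was at 36.3, 34.5, 33.2, 40.0 and 35.5 TPM in KO pIC libraries, at 27.2, 28.6, 30.1, 25.7 and 29.1 TPM in HET and at 27.6, 26.8, 27.6, 26.6 and 27.8 TPM in WT. KO lay above all others, by 0.38 ± 0.06 against WT (adjusted p = 0.00175), where under LPS it lay below. Trim65 was at 15.3, 15.7, 15.9, 15.7 and 17.7 TPM in KO pIC libraries, at 21.5, 26.0, 21.7, 20.3 and 27.9 TPM in HET and at 20.5, 25.1, 28.9, 18.2 and 27.0 TPM in WT. KO lay below all others, by -0.53 ± 0.12 against WT (adjusted p = 0.0105), where under LPS it lay above. The Trim65 call under pIC was lost with median-of-ratios scaling (adjusted p = 0.0801) and with quantile normalization (adjusted p = 0.0974).

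Trim36 was at 3.14, 2.41, 3.80, 3.15 and 4.22 TPM in KO pIC libraries and at 2.01, 2.17, 2.16, 1.46 and 2.06 TPM in WT. The groups did not overlap, and the difference was 0.54 ± 0.14 (adjusted p = 0.0196), which without WT pIC library 4 was 0.47 (adjusted p = 0.0517). Trim28 was at 99.6, 93.8, 108, 82.6 and 78.6 TPM in KO and at 149, 122, 127, 117 and 121 TPM in WT, without overlap, and differed by -0.46 ± 0.10 (adjusted p = 0.00918). Under LPS Trim28 was at 100 ± 17.5 TPM in KO and 93.7 ± 20.9 TPM in WT (SD, n = 5 each) and was not called. Against HET under pIC, 8 members were lower and 1 higher in KO, beside 3.6% and 1.65% of all genes. They were Trim30b (-1.44), Trim30c (-0.88), Trim46 (-0.56), Trim65 (-0.51), Trim12a (-0.47), Trim5 (-0.46), Trim25 (-0.29) and Trim12c (-0.27), and Trim56 (0.34). Only Trim30b and Trim56 among these kept the call under every alternative run, and in place of 9 the count was 4 without HET pIC library 2 or 5 and 5 without HET pIC library 1, KO pIC library 4 or KO pIC library 5.

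Without LPS or pIC the genotypes were close. Limma called 0 of 43 members between KO and WT in untreated cultures, beside 0.0314% of all genes, and 0 under IL4, beside 0.044%. At an unadjusted p under 0.05, 2 members passed in each, namely Trim26 (-0.24) and Trim30a (-0.30) untreated, and Trim30a (-0.32) and Trim34a (-0.26) under IL4. Between KO and HET it called 0 untreated and 0 under IL4, beside 0.00629% of all genes in each, with 1 and 3 members at an unadjusted p under 0.05. Trim30b and Trim30c were below 1 TPM in every untreated and IL4 library, near the lower end of detection.

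IL4 changed few members in the main fit, which does not pair cultures by number. In WT, Trim30a fell by 0.49 ± 0.12 (adjusted p = 0.00717) and Trim3, a brain ligase with an NHL domain, fell by 0.57 ± 0.16 (adjusted p = 0.0195), beside 2.63% of all genes lower and 3.68% higher. In HET, Trim12c and Trim30a fell by 0.38 and 0.36, beside 3.09% lower and 3.97% higher. In KO, Trim12a fell by 0.69 ± 0.11, Trim30a by 0.50, Trim33 by 0.38 and Trim12c by 0.37, while Trim36 rose by 0.50 ± 0.16 (adjusted p = 0.0448), beside 3.03% lower and 5.38% higher. The Trim36 call was lost under 13 alternatives. That of Trim30a was lost with median-of-ratios scaling in WT, HET and KO (adjusted p = 0.193, 0.339 and 0.0589). With quantile normalization it was lost in WT and HET (adjusted p = 0.0658 and 0.162), and in HET also without most single libraries. The Trim12c calls in HET and KO were lost under both scalings. The Trim3 call was lost with only the groups compared and without some single libraries. With the culture number as a block, since same-numbered WT cultures deviated together, 7 members were called for IL4 in WT in place of 2. No share of all genes is given beside that count. In the main fit the WT count was 4 without WT IL4 library 1 and 1 without WT IL4 library 2. The HET count was 1 without IL4 library 1, 4 or 5 or untreated library 1, 2, 4 or 5. A block raised the HET count, as given in the last section. The IL4 response did not differ between KO and WT for any member by limma (0 called beside 0% of all genes, 1 at an unadjusted p under 0.05).

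By domain class, KO with LPS had 9 of the 22 tested members of the PRY-SPRY class lower and 2 higher than WT, beside 13.2% and 14.4% of all genes (median -0.21, beside 0.01 over all genes). The 9 include Trim30b, which passed the limit mostly through HET and WT libraries. The class holds 22 of the 43 members tested, and no test set it against the others. Limma called 0 of the 3 with an NHL domain, 0 of the 3 of the PHD-bromodomain class and 0 of the 2 membrane-anchored members there, with 0, 2 and 0 of them at an unadjusted p under 0.05. Of the 3 without a RING finger, Trim14 was lower and Trim16 higher. The 14 members that act on innate signalling had a median of -0.19 under LPS. Of 15 tested under pIC, 2 were lower and 1 higher, beside 8.11% and 3.4% of all genes (median -0.10, beside -0.11 over all genes). Under LPS the uncalled ones were Trim8 (-0.15), Trim11 (-0.10), Trim12c (-0.04), Trim13 (0.08), Trim23 (-0.14), Trim27 (-0.23) and Trim32 (-0.03).

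Genes of 3 pathways around the family were counted in the same fits, beside 13.2% of all genes lower and 14.4% higher under LPS and 8.11% and 3.4% under pIC. Of 23 sensors and adaptors upstream of interferon, KO with LPS had 9 lower and 2 higher than WT with LPS. Irf7, the master factor of type I interferon genes, differed by -3.01 ± 0.30, the RNA sensors Ifih1 (MDA5) and Ddx58 (RIG-I, a target of Trim25) by -1.51 ± 0.13 and -1.08 ± 0.15, and the adaptors Sting1 and Mavs were higher by 0.82 ± 0.15 and 0.65 ± 0.08. Under pIC, 2 of the 23 were lower and 4 higher, with Mavs at -0.34 ± 0.09 and Ddx58 at 0.19 ± 0.05. Of 20 ubiquitin and ISG15 pathway genes, 10 were lower under LPS, led by the ISG15 protease Usp18 (-2.61 ± 0.25) and Isg15 itself (-2.40 ± 0.34), while under pIC 1 was lower, Usp4 (-0.22 ± 0.05). Of 10 genes of the interferon receptor axis tested, 7 were lower and 3 higher under LPS, with Stat2 at -1.43 ± 0.18 and the inhibitor Socs1 at 0.69 ± 0.20, and of 11 tested under pIC limma called 0, with 5 at an unadjusted p under 0.05. Pml (TRIM19), a family protein that the symbol rule leaves out, differed by -0.93 ± 0.14 under LPS and was not called under pIC (0.25, adjusted p = 0.0767). Ifnb1 is an interferon to which many TRIM genes respond. Under LPS it was at 0.232 ± 0.193 TPM in KO, 0.343 ± 0.317 in HET and 0.776 ± 0.423 in WT (SD, n = 5 each). Under pIC it was at 46.5 ± 12.4 TPM in KO, 73.8 ± 35.7 in HET and 46.7 ± 19.8 in WT (SD, n = 5 each). The LPS means lay below 1 TPM, and the part of Ifnb1 in the TRIM differences was not tested.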

How the data were processed

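Transcripts were measured by RNA sequencing in 59 libraries of primary mouse microglia. The authors deposited TPM per gene, with 15 pIC libraries in a table of their own and the other 44 together. Library input was 300 ng of RNA for an mRNA kit, per the labels' protocols, and per the submitters' processing notes the tools were DRAGEN, Picard, Trimmomatic and FastQC and the build mm10, without versions. Annotation release and strand setting are not given in the sources used here. TPM keeps no depth. Between 12428 and 14581 genes reached 1 TPM per library, and no columns were identical.

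Values were transformed as log2(TPM + 1), which understates the change of low genes. The test covered genes at 1 TPM or more in 4 or more libraries, 13919 in the pIC table and 15908 in the other. It used limma 3.58.1 in R 4.3.3 (lmFit, then eBayes with trend), with group means and 1 estimate of the spread per table. The Benjamini-Hochberg adjustment ran over all genes tested, and every adjusted p in the text comes from limma. Replicates were independent cultures per the labels, and p-values measure the spread between them. No test was made between the tables. Figures used Python 3.11.15, pandas 2.3.3 and matplotlib 3.10.9.

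The members, gene lists and tests were chosen with earlier results of these data known. Named were up to 10 called members per direction and comparison, the members acting on innate signalling under LPS and pIC, the 6 highest in untreated WT, Tbk1 and up to 4 called genes per pathway list, with every library printed for members called under LPS in KO against WT at an absolute difference of at least 1. Other library values, Trim5 and Pml were added after their values were seen.

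On simulated data with known changes of 1 and 2 on the log2 scale, 94% and 99% were recovered for KO against WT under LPS, 83% and 99% under pIC and 71% and 93% for the difference of LPS responses. The noise was normal and independent between libraries, and low genes were not given changes. Same-numbered libraries deviated together, every pair with a correlation over 0.1 across genes, for HET against WT untreated (lowest 0.121), LPS against UT in WT (0.118) and KO (0.130), and IL4 against UT in WT (0.191) and KO (0.173). Only these met that cut, a hint from the data that the number pairs the samples. The cut does not show that other comparisons are unpaired. In IL4 against UT in HET the mean same-numbered correlation was 0.285, with a lowest of 0.0531. The alternatives tried were quantile normalization, median-of-ratios scaling, a pseudocount of 0.1, no filter, fitting just the groups compared, the replicate number as a block, and leaving out each library in turn. A block for genotype and number together was added after seeing the data.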

Additional observations from a re-analysis of the deposited data

Results flagged for a closer look

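Of 84 groups of libraries examined, for the members that differed by at least 1 on the log2 scale between KO and WT under LPS, 9 had 1 library far from the others of its group, where chance flags about 1 in 20. Trim21 stood high at 67.059 TPM in HET LPS library 5, and Trim30c at 72.358 TPM in WT LPS library 5. Trim25 stood high at 40.495 TPM in WT IL4 library 3. Trim30b stood high at 0.401 TPM in KO UT library 3 and at 0.907 TPM in HET UT library 3. Trim55 stood high at 0.607 TPM in KO IL4 library 2 and at 0.327 TPM in WT IL4 library 5, and low at 0.246 TPM in HET pIC library 4. Trim36 stood low at 1.461 TPM in WT pIC library 4.

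The LPS response differed between KO and WT by limma's test of the difference for 14 members, of which Trim30a, Trim34a, Trim47 and Trim65 lost the call under at least 1 alternative, and of which Trim55 is a description since KO libraries alone brought it past the limit on low values. Trim30b is a description as well, since HET and WT libraries mostly brought it past the limit. It was smaller in KO for Trim30c (-2.87), Trim30b (-2.705), Trim21 (-1.25), Trim12a (-1.067), Trim25 (-1.041), Trim14 (-1.003), Trim30d (-0.979), Trim56 (-0.7598), Trim30a (-0.5568) and Trim34a (-0.5138). It was above that of WT for Trim65 (0.4811), Trim47 (0.7533), Trim36 (1.091) and Trim55 (1.472).

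Trim56 and Trim65 differed from WT in opposite directions under LPS and pIC, with all KO libraries on one side of all WT libraries each time. Trim56 was at -0.6952 under LPS and 0.3804 under pIC, and Trim65 at 0.4323 under LPS and -0.5304 under pIC. The difference between LPS and pIC was not tested, since the tables were processed apart.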

How the results depend on the processing

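TPM keeps no depth and depends on the most abundant genes, so small differences of low members are the least firm. Of 114 named differences, 88 kept the call under every alternative run, 26 lost it under at least 1, and 0 changed sign. Under LPS in KO against WT, Trim16 and Trim46 were the ones that lost it, and the count of members was 15 to 21 without single libraries, beside 17. For KO against HET under pIC, beside 9 members, 3 were called with only the groups compared, 3 with median-of-ratios scaling, 5 with no filter and 5 with quantile normalization, and 4 to 8 without single libraries. For IL4 against UT in HET, beside 2, 0 were called with median-of-ratios scaling, 0 with quantile normalization, 1 with no filter, 5 with the replicate block and 7 with the culture block, and 1 to 2 without single libraries. For IL4 against UT in WT, beside 2, 1 was called with median-of-ratios scaling, 7 with the replicate block and 8 with the culture block, and 1 to 4 without single libraries. For HET against WT under LPS, 0 to 1 were called without single libraries, the 1 without HET LPS replicate 5. The other counts of called members, taken over both directions, stayed within 1.5 times, the replicate block included. By direction, for LPS against UT, beside 24 lower in WT and HET and 13 higher in KO, median-of-ratios scaling gave 13 and 13 lower and 20 higher, and quantile normalization 15 and 14 lower and 19 higher. The counts over all genes, given above, moved with the scaling too. For the LPS response, KO minus WT, both gave 2 higher beside 4. For KO against WT under pIC, median-of-ratios scaling gave 4 lower beside 7, and 1 was higher beside 2 with only the groups compared and without WT pIC library 4. Over all genes that scaling gave 470 lower beside 1129. The 1 rise with IL4 in KO was lost under 13 alternatives. The causes were not tested.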
